A study of Mus musculus with 7 samples.

Results

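The B cells described here belong to expanded clones that hold at least 1 class-switched cell, in lymph nodes of 5xFAD mice and wild-type (WT) mice. In each of 6 single-cell libraries, cells with exactly 1 productive heavy chain were joined into a clone when they shared V and J genes and the length of the junction, and were linked by junction sequences with differences at no more than 0.15 of the bases. A clone was kept when it had 2 or more cells and at least 1 of them carried an IgG or IgA constant region. The choice gave 70 clones with 183 cells, of 1066 expanded clones and 17381 cells in all. Of the 183 cells, 159 were switched, 21 were unswitched (IgM or IgD) and 3 had no constant region call. The clones were thus chosen by clone size, isotype, V and J genes and junction, and these are given as descriptions. Light chains and counts of unique molecular identifiers (UMIs, one per captured RNA molecule) were not used. Nor were heavy chain V bases before the junction. V mutations counted in the first junction bases, where the V gene ends, overlap the rule.

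The study set deep cervical (dCLN), superficial cervical (sCLN) and inguinal (iLN) lymph nodes of female 5xFAD mice against those of female WT mice, all 10 to 11 months old, with 1 B cell receptor library for each node and genotype. 5xFAD mice are a transgenic Alzheimer model, with transgenes driven by the neuronal Thy1 promoter, and build up amyloid plaques with age. Lymph from the head and the brain's meninges drains to cervical nodes, and lymph from the lower body to inguinal nodes. Cells from several tubes were tagged with hashtag antibodies and combined, and the animal of a cell was not used here, so a clone cannot be told apart from similar receptors of different animals. With 1 library per node and genotype there is no test of 5xFAD against WT within a node.

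A naive B cell carries IgM and IgD. After activation it can switch its constant region by cutting out the DNA between its rearranged V region and a constant gene further along, and it can mutate its V regions in germinal centers, where its daughters share the mutations acquired before they separated. In mouse GRCm38 (GENCODE M21) the constant genes lie in this order on the minus strand of chromosome 12, from Ighm (chr12:113418558-113422730) and Ighd (chr12:113406604-113416324) through Ighg3 (chr12:113356224-113361232), Ighg1 (chr12:113325240-113330523), Ighg2b (chr12:113302965-113307933), Ighg2c (chr12:113285325-113288932) and Ighe (chr12:113269260-113273248) to Igha (chr12:113254830-113260236). A cell that has switched can switch again only toward Igha. The junction is the stretch where V, D and J segments are joined, and a light chain rearranged separately gives a second mark of common descent.

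A few of the named clones that held several isotypes, and 1 group in which the light chains disagreed, are shown by their junctions, because these letters are what joined the cells. All junctions are on chromosome 12, read 5′ to 3′ from the cells' own contigs, and capitals mark bases that differ from the commonest junction of the clone (where none was repeated, from the first one listed).
The 8 cells of the 5xFAD dCLN clone of IGHV1-82 (chr12:115952538-115953005) and IGHJ4 had 8 different junctions.
IgM: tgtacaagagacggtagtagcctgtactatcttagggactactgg
IgG1: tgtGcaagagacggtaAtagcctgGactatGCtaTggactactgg
IgG1: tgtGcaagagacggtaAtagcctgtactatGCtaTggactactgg
IgG1: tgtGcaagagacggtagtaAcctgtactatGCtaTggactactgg
IgG1: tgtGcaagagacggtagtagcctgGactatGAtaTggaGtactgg
IgG1: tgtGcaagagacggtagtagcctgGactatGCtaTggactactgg
IgG1: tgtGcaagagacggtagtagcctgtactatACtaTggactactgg
IgG1: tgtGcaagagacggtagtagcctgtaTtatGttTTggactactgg
The 6 cells of the 5xFAD dCLN clone of IGHV3-3 (chr12:114196439-114196875) and IGHJ1 had 1 common junction and 1 variant.
IgM, IgG3 and 3 IgG1: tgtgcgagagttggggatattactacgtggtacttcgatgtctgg
IgM: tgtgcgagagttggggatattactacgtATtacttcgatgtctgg
The 4 cells of the WT dCLN clone of IGHV2-2 (chr12:113588267-113588702) and IGHJ4 had a junction of 63 bases.
IgM and IgA: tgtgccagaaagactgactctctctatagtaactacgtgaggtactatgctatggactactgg
no isotype call: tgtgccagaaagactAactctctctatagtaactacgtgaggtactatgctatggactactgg
IgG2c: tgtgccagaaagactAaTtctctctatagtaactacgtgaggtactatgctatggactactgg
The 3 cells of the 5xFAD dCLN clone of IGHV8-8 (chr12:115294062-115294504) and IGHJ3 each had their own junction.
IgG3: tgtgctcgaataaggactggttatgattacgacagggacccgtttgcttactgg
IgG1: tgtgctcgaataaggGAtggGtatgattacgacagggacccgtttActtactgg
IgM: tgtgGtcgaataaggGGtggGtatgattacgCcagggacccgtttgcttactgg
The 2 cells of the 5xFAD dCLN clone of IGHV1-15 (chr12:114657353-114657786) and IGHJ1 had 1 junction.
IgM and IgG1: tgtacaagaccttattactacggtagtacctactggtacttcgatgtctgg
In the 5xFAD dCLN clone of IGHV1-53 (chr12:115158403-115158835) and IGHJ2, the IgM cell with the variant junction had another light chain than the other 5 cells.
IgM and 4 IgG2b: tgtgcaagaggaactgggactgactactgg
IgM, other light chain: tgtTcaagaggGactgggacCgactactgg

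The clones were small and lay mostly in the cervical nodes. The deep cervical libraries held 18 clones with 55 cells in 5xFAD and 25 clones with 70 cells in WT. The superficial cervical libraries held 6 clones with 13 cells in 5xFAD and 17 clones with 36 cells in WT, and the inguinal libraries 1 clone with 3 cells in 5xFAD and 3 clones with 6 cells in WT. Per 1000 cells this was 4.61 clones in 5xFAD dCLN and 7.41 in WT dCLN, 2.55 in 5xFAD sCLN and 4.94 in WT sCLN, and 0.475 in 5xFAD iLN and 1.36 in WT iLN. The 5xFAD value was below the WT value in each of the 3 nodes, but cells differed in number, and with libraries thinned to 2107 cells the deep cervical counts averaged 8.54 clones in 5xFAD and 14.3 in WT. In all, 45 clones had 2 cells, 18 had 3 and 7 had 4 or more. The 7 were all deep cervical, 4 in 5xFAD and 3 in WT.

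Of the switched cells, 47 of 159 in 5xFAD dCLN lay in these clones (29.6%, 95% Clopper-Pearson interval 22.6% to 37.3%) and 62 of 136 in WT dCLN (45.6%, 37.0% to 54.3%). The shares were 12 of 68 in 5xFAD sCLN (17.6%, 9.47% to 28.8%) and 32 of 144 in WT sCLN (22.2%, 15.7% to 29.9%). They were 1 of 25 in 5xFAD iLN (4%, 0.101% to 20.4%) and 5 of 31 in WT iLN (16.1%, 5.45% to 33.7%). The intervals cover counting error only, and those of 5xFAD dCLN and WT dCLN overlapped by a narrow margin while those of the other nodes overlapped widely. Over all libraries 28.2% (24.6% to 32.2%) of switched cells lay in the clones and 404 lay outside any expanded clone.

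Depth and overlap between libraries were as follows. The libraries held 20052 barcodes with 40825 contigs, no T cell receptor contig, and 99906 to 312484 immunoglobulin UMIs each, so the inguinal libraries were the shallowest. Among the barcode names 225 occurred in more than 1 library, and 1 of these was a cell of the 70 clones. Gene expression was not analysed here, so germinal center, memory and plasma cell states were not assigned. Within the clones, 38 barcodes in 34 clones repeated the junction, V mutations and light chain junction of another cell of the clone, and 21 clones consisted of 1 receptor only. Barcodes of 1 clone differed at 7 or more of 16 bases. Whether such repeats are sister cells or 1 cell seen under several barcodes cannot be told apart here, and counted as 1 they left 19.5% of switched cells inside clones.

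IgG2b, IgG2c and IgG1 made up most of the switched cells in the clones. IgG2b took 50 of 159 cells (31.4%, 24.3% to 39.3%) and IgG2c 49 (30.8%, 23.7% to 38.6%), against 37.6% and 29.7% of the 404 switched cells outside. IgG1 took 40 (25.2%, 18.6% to 32.6%), against 18.8% outside. IgA, the isotype exported across mucosal surfaces, took 11 (6.92%, 3.50% to 12.0%), against 11.6% outside, and IgG3 took 9 (5.66%, 2.62% to 10.5%), against 2.23% outside. No IgE cell was found inside, which allows a share of up to 1.89%, or outside. The intervals of the inside shares and of the outside shares overlapped for each of these isotypes.

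The deep cervical libraries held unlike isotype shares. IgG1 was 18 of 47 switched clone cells in 5xFAD dCLN (38.3%, 24.5% to 53.6%) and 7 of 62 in WT dCLN (11.3%, 4.66% to 21.9%), of which 7 of the 5xFAD cells came from 1 clone. IgG2c was 6 of 47 in 5xFAD dCLN (12.8%, 4.83% to 25.7%) and 28 of 62 in WT dCLN (45.2%, 32.5% to 58.3%). Both pairs of intervals lay apart, but cells of 1 clone are not independent and each side is 1 library. Among switched cells outside the clones, IgG1 was 12.5% in 5xFAD dCLN and 8.11% in WT dCLN. IgG2c was 26.8% and 36.5% of these outside cells. Counted by clones, IgG1 occurred in 7 of 18 clones of 5xFAD dCLN and 4 of 25 of WT dCLN, and IgG2c in 5 of 18 and 15 of 25 of the same libraries. In the superficial nodes IgG1 was 33.3% of 12 switched clone cells in 5xFAD and 34.4% of 32 in WT, and IgG2c was 33.3% and 31.25%.

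**Figure D1:**
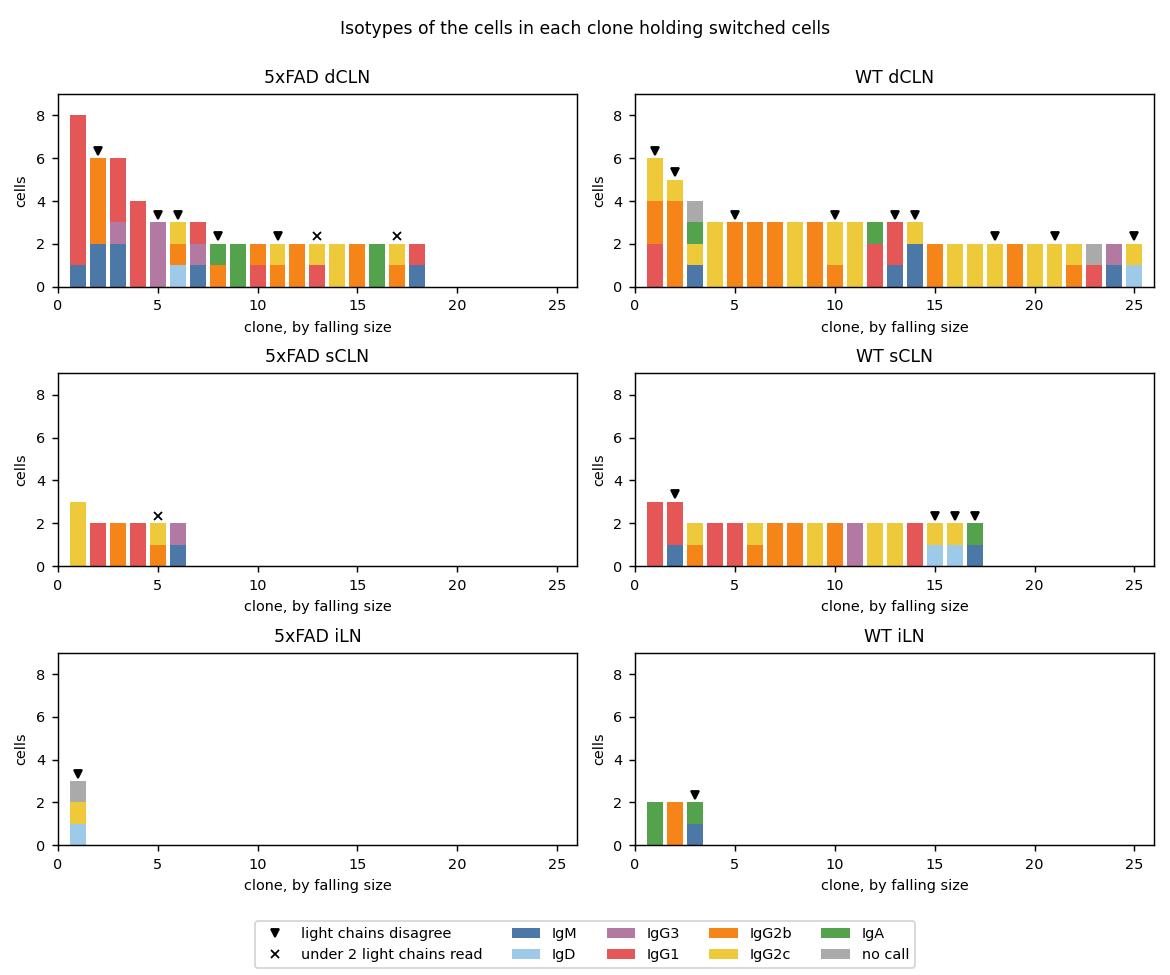
Each bar is 1 clone, its height the number of cells and its colours their isotypes, with one panel per library. Triangles mark clones whose cells did not all have the same top light chain, and crosses mark clones with fewer than 2 cells with a light chain. The bars above 3 cells are all in the deep cervical panels, and 38 of the 70 clones have a single isotype.

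Most clones held 1 isotype. In 38 clones every cell had the same one, and 17 held several switched isotypes, 8 of 18 in 5xFAD dCLN, 6 of 25 in WT dCLN, 1 of 6 in 5xFAD sCLN, 2 of 17 in WT sCLN and none of the 4 inguinal clones. The commonest mix was IgG2b with IgG2c, neighbouring genes, in 8 clones across 4 libraries (2 in 5xFAD dCLN, 3 in WT dCLN, 1 in 5xFAD sCLN and 2 in WT sCLN). Their IgG2b and IgG2c cells shared all 14 heavy chain V mutations in the IGHV6-3 clone and 1 of 31 in the IGHV1-15 clone. In the others they shared none, and the 5xFAD sCLN clone was unmutated. The IGHV1-80 and IGHV5-12 clones had no light chain common to both isotypes. In the rest with light chains read in both, some pairs did. Switching within these clones was not tested. IgG2b alone and IgG2c alone made 13 clones each, IgG1 alone made 8 when a clone with an uncalled cell is included, IgA alone 3 and IgG3 alone 2. A single clone, of IGHV1-26 and IGHJ2 in WT dCLN, held 3 switched isotypes.

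Unswitched cells stood beside switched ones in 18 of the 70 clones (25.7%), a share that depended on how cells were joined. It was 43.5% with junctions up to 0.20 apart, 14.5% with the same light chain required and 13.0% with identical junctions. The 18 were 6 in 5xFAD dCLN, 5 in WT dCLN, 1 in 5xFAD sCLN, 4 in WT sCLN, 1 in 5xFAD iLN and 1 in WT iLN. The mixes were IgD with IgG2c in 4 clones, IgM with IgG1 in 4, IgM with IgA in 2, IgM with IgG3 in 2, IgM with IgG3 and IgG1 in 2, and 4 others in 1 clone each. In 9 of the 18 an unswitched and a switched cell also had a light chain in common, by V gene, J gene and junction length. Of the 28 such cell pairs, 15 had the same light chain junction sequence. The 9 clones were 6 of the 18 clones in 5xFAD dCLN (33.3%, 13.3% to 59.0%), 2 of 25 in WT dCLN (8%, 0.984% to 26.0%) and 1 of 6 in 5xFAD sCLN, with none in the other 3 libraries.

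The 21 unswitched cells divided by their light chain. Of the 10 that shared a light chain with a switched cell of their clone, 8 carried V mutations (0 to 10 per cell, median 2.5), and 6 had a junction identical to that of a switched cell. Of the 11 that did not, 2 carried V mutations, and none had an identical junction, the nearest switched junction being 3 to 7 bases away. Median heavy chain UMIs were 16 in both sets. Of the 10 cells, 7 were in 5xFAD dCLN, 2 in WT dCLN and 1 in 5xFAD sCLN. Of the 11, 1 was in 5xFAD dCLN, 4 each in WT dCLN and WT sCLN, and 1 in each inguinal library. This division was made after the values were seen and was given no test, since it follows a few clones of mostly 1 library.

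The 5xFAD dCLN clone of IGHV1-82, IGHJ4 and IGKV4-57 was the largest, with 7 IgG1 cells and 1 IgM cell. The IgG1 cells had 5, 8, 7, 6, 3, 7 and 9 V mutations with 2, 3, 10, 14, 15, 19 and 30 heavy chain UMIs, and the IgM cell had 6 mutations with 148 UMIs. All 8 used IGKV4-57 with IGKJ5, but the light chain junction of the IgM cell differed from that of every IgG1 cell. Of 32 distinct mutations in the clone, none was in all cells and 24 were in 1 cell only. The IgM cell shared 1 mutation with 2 of the IgG1 cells and none with the other 5, and its junction differed from theirs by 4 to 6 of 45 bases. IgG1 cells differed from each other at 1 to 5 junction bases and shared up to 5 mutations, with 1 IgG1 cell sharing none with the other 6.

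The 5xFAD dCLN clone of IGHV1-53, IGHJ2 and IGKV6-13 had 4 IgG2b cells with 7, 8, 10 and 7 V mutations and 12, 18, 29 and 36 UMIs, of which 7 mutations were common to each pair. An IgM cell with the same heavy chain junction and light chain genes (3 mutations, 19 UMIs) shared none of these heavy chain mutations but 4 or 5 light chain mutations with each IgG2b cell. Its light chain junction differed from that of each IgG2b cell. The other IgM cell, with IGKV6-23, 14 mutations and 43 UMIs, shared 2 heavy chain mutations with each of them. By V mutations the IgG2b cells thus formed a set of their own.

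The 5xFAD dCLN clone of IGHV3-3, IGHJ1 and IGKV4-86 had 3 IgG1 cells with 0, 1 and 3 V mutations, an IgG3 cell with 0, and IgM cells with 0 and 3. No heavy chain mutation was shared by any pair, although 5 of the 6 junctions were identical. Heavy chain UMIs were 19, 29 and 31 in the IgG1 cells, 31 in the IgG3 cell, and 5 and 48 in the IgM cells. This clone therefore joined 3 isotypes at low mutation.

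The 5xFAD dCLN clone of IGHV1-15, IGHJ1 and IGKV4-57 had an IgG1 cell with 9 V mutations (12 UMIs) and an IgM cell with 10 (108 UMIs), and all 9 of the IgG1 cell were also in the IgM cell. The stretch from CDR1 to CDR2, the antigen-contacting loops encoded by the V gene, shows them side by side with the germline of the deposited alignment, capitals marking differences from that germline.
germline: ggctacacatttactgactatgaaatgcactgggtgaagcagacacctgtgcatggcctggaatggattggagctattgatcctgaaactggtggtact
IgG1: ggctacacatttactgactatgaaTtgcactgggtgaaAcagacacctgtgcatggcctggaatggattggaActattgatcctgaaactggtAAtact
IgM: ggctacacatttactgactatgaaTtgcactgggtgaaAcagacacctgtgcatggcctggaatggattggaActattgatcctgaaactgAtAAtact
In this stretch the IgG1 cell had 5 differences and the IgM cell had the same 5 and 1 more. Their light chains shared 5 mutations, of 5 in the IgG1 cell and 7 in the IgM cell.

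The remaining clones with a light chain common to unswitched and switched cells had few mutations or none in common. In the 5xFAD dCLN clone of IGHV8-8, IGHJ3 and IGKV3-5 the IgG1, IgG3 and IgM cells had 6, 2 and 3 mutations, none shared. The 5xFAD sCLN clone of IGHV6-3, IGHJ4 and IGKV2-137 had an IgG3 cell with 7 and an IgM cell with 2, none shared. In the WT dCLN clone of IGHV2-2, IGHJ4 and IGKV17-127 the IgG2c cell had 5 mutations, the IgA cell 2, the IgM cell 1 and the cell with no isotype call 0, with none shared at 14, 3, 4 and 1 UMIs. The WT dCLN clone of IGHV6-3, IGHJ2 and IGKV1-110 had an IgG3 and an IgM cell with the same single mutation, at 5 UMIs each. In the 5xFAD dCLN clone of IGHV8-8 and IGHJ2, an IgG2b, an IgG2c and an IgD cell were all unmutated with 1 junction, and the IgD cell carried the common IGKV6-15 chain beside an IGKV8-24 chain with more UMIs.

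Cells of the same switched isotype shared V mutations in most pairs, and other pairs in fewer. Of 106 pairs of switched cells with the same isotype, 84 shared at least 1 mutation, and the median pair shared 62.5% of its mutations. Repeated barcodes are among these pairs, and with repeats counted as 1 (145 cells, a count added after seeing the data) 49 of 60 pairs shared a mutation and the median was 25.7%. Of 35 pairs with different switched isotypes, 11 shared at least 1, and 7 of 23 did with repeats counted as 1. Of 44 pairs of an unswitched and a switched cell, 8 did, or 6 of 37 with repeats counted as 1, and 1 of the 44 had all its mutations in common. Among the 28 of these 44 with a common light chain, 4 shared a mutation. Of the 44, 28 were in 5xFAD dCLN, where 7 shared a mutation, and 8 in WT dCLN, where 1 did. Pairs of 1 clone are not independent, and no test was made.

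The WT dCLN clone of IGHV1-26 and IGHJ2, the one with 3 switched isotypes, consisted of sets of 3 cells each. One set, 2 IgG1 and 1 IgG2c, had 12 V mutations in each cell. The other set, 2 IgG2b and 1 IgG2c, had 13 in each, and the sets had no mutation in common and junctions 2 bases apart. IGKV9-120 was the top light chain in 5 cells, and the sixth, an IgG2c cell, had it beside an IGKV2-109 chain with more UMIs. Heavy chain UMIs were 3 to 9 per cell.

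**Figure D2:**
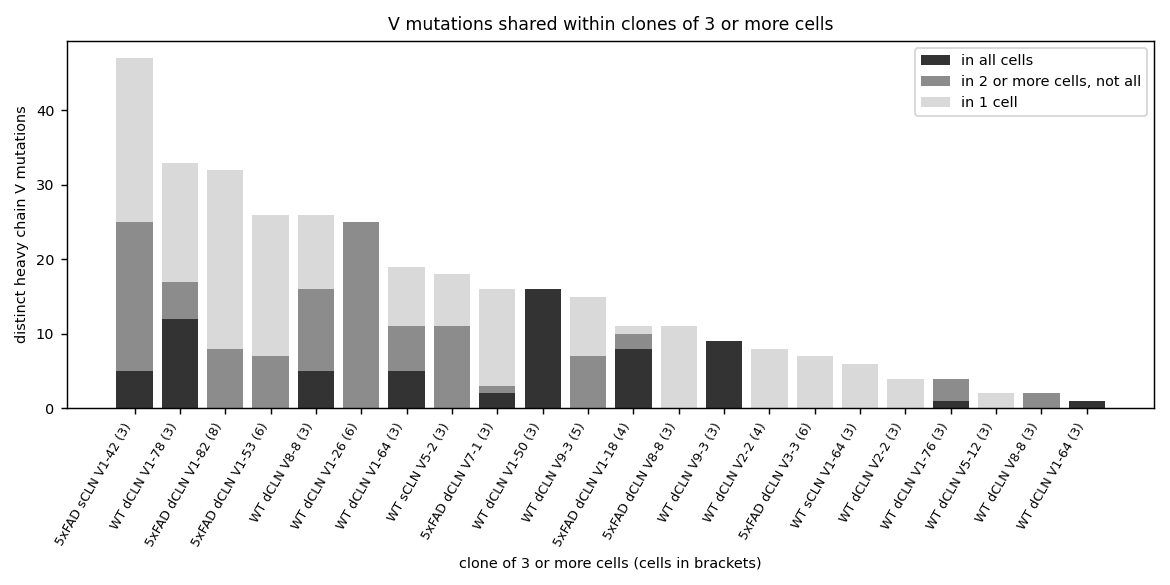
Each bar is 1 clone of 3 or more cells with at least 1 V mutation, its height the number of distinct heavy chain V mutations, divided into those in all cells, in several, and in 1 cell. In the WT dCLN clone of IGHV1-50 all 16 mutations are in all 3 cells, and in the 5xFAD dCLN clone of IGHV1-82 none of 32 is.

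V mutation of switched cells in the clones and outside differed by less than the spread between libraries. They had a mean of 2.79% of V bases mutated (SD 2.49 over 159 cells), against 2.56% (SD 2.48) in 404 switched cells outside, and 23 of the 159 were unmutated. By library the means were 2.16% inside and 2.24% outside in 5xFAD dCLN, 2.95% and 2.80% in WT dCLN, 3.85% and 2.45% in 5xFAD sCLN, 3.01% and 2.83% in WT sCLN, 0% and 2.28% in 5xFAD iLN, where the inside value is 1 cell, and 3.20% and 2.60% in WT iLN. The inside mean was higher in 4 of 6 libraries. Heavy chain V mutation is not fully free of the rule, since strongly mutated junctions are joined less often. The mean difference over the 6 libraries was -0.00455 ± 1.23 percentage points (SD, exact two-sided sign-flip permutation test, p = 1, adjusted p = 1 over 5 tests, smallest possible p 0.03125), and without 5xFAD iLN it was 0.450. For light chains the difference was -0.112 ± 1.08 points (the same exact permutation test, p = 0.906, adjusted p = 1), again higher inside in 4 of 6, and 0.283 without 5xFAD iLN.

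The make-up of the mutations was close inside and outside, and was not tested. Of 759 distinct mutations in switched clone cells, 26.7% lay in CDR1 or CDR2, which hold 16.4% of the V bases compared, and 68.1% changed the amino acid. Outside, 27.3% of 3042 lay in these loops and 67.5% changed the amino acid. Transitions made 61.0% inside and 62.0% outside. Mutations in the motif AGCT, a known hotspot of the mutating enzyme AID that reads alike on both strands, made 11.6% inside and 11.4% outside, where the motif held 3.65% and 4.17% of the bases.

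Unswitched cells in the clones averaged 0.711% of V bases mutated (SD 1.26, 21 cells), against 0.0265% in 2077 unswitched cells of clones with no switched cell. Of the 21, 6 had 1% or more, against 0.770% of the 2077. The values came mainly from 5xFAD dCLN, where 8 cells averaged 1.66% against 0.0133%, and from 1 cell in 5xFAD sCLN at 0.671% against 0.0240%. WT dCLN had 0.113% in 6 cells against 0.0392%, WT sCLN 0.0850% in 4 against 0.0245%, 5xFAD iLN 0 in 1 cell against 0.0154%, and WT iLN 0 in 1 cell against 0.0355%. The mean difference was 0.395 ± 0.661 points, higher in 4 of 6 libraries (exact sign-flip permutation test, p = 0.125, adjusted p = 0.625), so it did not pass the test. It was 0.146 points without 5xFAD dCLN, 0.124 with junctions up to 0.20 apart, 0.782 in the 3 libraries left with the same light chain required, and 0.830 in the 2 left with identical junctions.

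**Figure D3:**
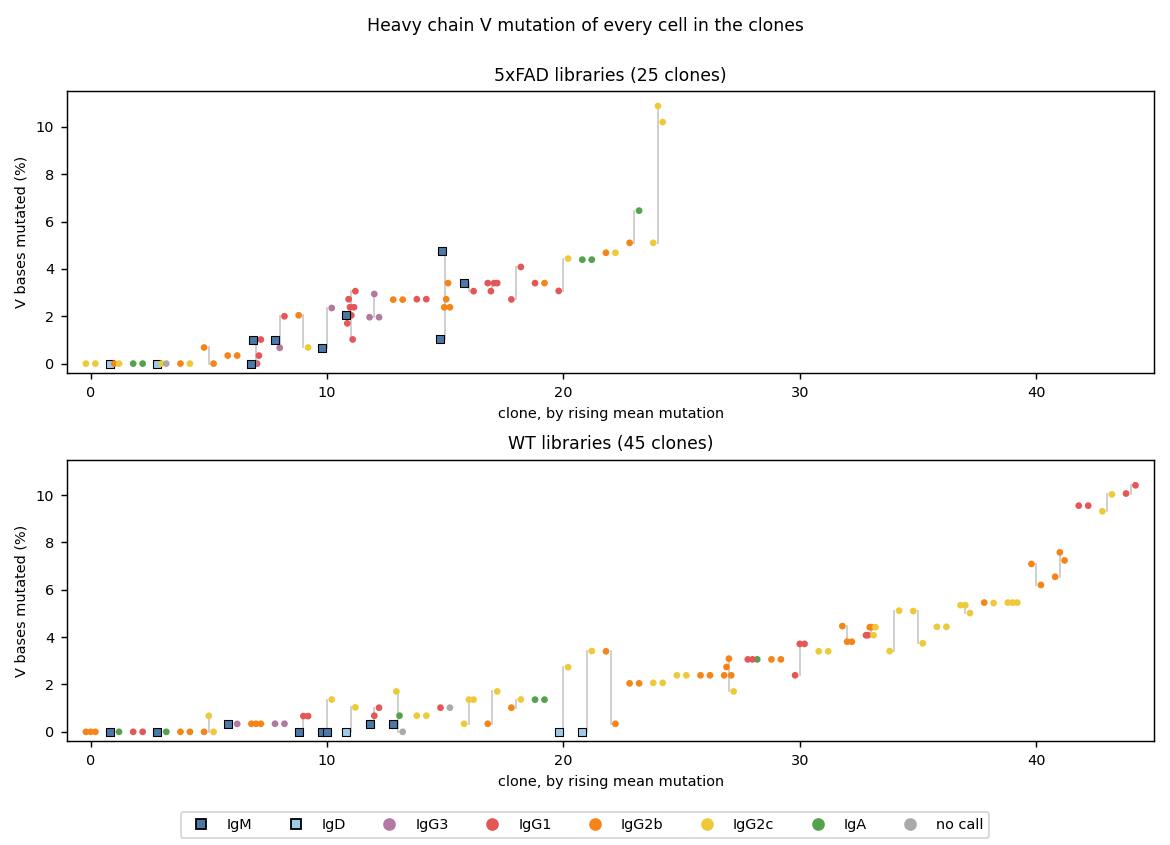
Each column is 1 clone and each point 1 cell, placed by the percent of heavy chain V bases mutated, with squares for IgM and IgD cells, circles for the others, and grey lines joining the lowest and highest cell. Squares at 1% or more are all in the 5xFAD panel, and in several columns an unmutated square stands below mutated switched cells.

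Within clones, the median range of mutation between the lowest and highest cell was 0.340 percentage points, and 0.888 points with repeated barcodes counted as 1. In 20 clones with mutations all cells had the same set. A further 10 clones were unmutated. The widest range, 5.78 points, was in the 5xFAD sCLN clone of IGHV1-42, IGHJ4 and IGKV4-72, whose 3 IgG2c cells had 15, 32 and 30 V mutations, 5 of them in all cells. The next was the IGHV1-53 clone of 5xFAD dCLN above, at 3.74 points. In the WT dCLN clone of IGHV9-3 and IGHJ1 (3.41 points) and the WT sCLN clone of IGHV2-2 and IGHJ1 (2.73 points), an IgG2c cell with 10 and 8 mutations stood beside an unmutated IgD cell with another light chain. In the WT dCLN clone of IGHV1-31, IGHJ4 and IGKV12-46 (3.06 points), IgG2b cells with 10 and 1 mutations had 21 and 1674 UMIs, and the 1 mutation was shared.

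Light chains agreed in most clones. All cells had the same top light chain (by V gene, J gene and junction length) in 47 of 70 clones. These were 11 of 18 in 5xFAD dCLN, 16 of 25 in WT dCLN, 5 of 6 in 5xFAD sCLN, 13 of 17 in WT sCLN, 0 of 1 in 5xFAD iLN and 2 of 3 in WT iLN. In 9 clones some cells agreed, in 11 none did, and 3 had fewer than 2 cells with a light chain. Over cell pairs, 142 of 186 (76.3%) agreed in these clones, against 769 of 1237 (62.2%) in clones with no switched cell. Large clones give more pairs. In 5xFAD dCLN all pairs agreed in the IGHV1-82 clone of 8 cells and in the IGHV3-3 clone of 6. By library the shares were 84.8% and 42.8% in 5xFAD dCLN, 67.1% and 74.3% in WT dCLN, 100% (7 pairs) and 57.6% in 5xFAD sCLN, 76.2% and 62.9% in WT sCLN, 33.3% (3 pairs) and 72.6% in 5xFAD iLN, and 66.7% (3 pairs) and 60.8% in WT iLN. The mean difference was 9.52 ± 31.1 points, higher in 4 of 6 libraries (exact sign-flip permutation test, p = 0.406, adjusted p = 0.677). The size and direction of this difference depended on the joining of cells. It was -5.30 points at a junction distance of 0.10, -5.82 with identical junctions, 21.6 at 0.20 and 52.7 with repeated barcodes counted as 1. In both of these last settings agreement was higher in the clones in 5 of 6 libraries (exact sign-flip permutation test, p = 0.0625, adjusted p = 0.3125). But repeats are defined by the same light chain junction, so counting them as 1 takes out agreeing pairs in both kinds of clone. The value with repeats counted as 1 is thus partly built in, and nothing follows from it or its p-value. The difference was 2.94 points without 5xFAD sCLN, 3.02 without 5xFAD dCLN and 19.3 without 5xFAD iLN. The value with identical junctions also leaves out 5xFAD iLN, which had no clone in that setting. Light chain agreement was 87.4% among pairs of 1 switched isotype, 66.7% among pairs of different switched isotypes and 59.1% between unswitched and switched cells. These shares include repeated barcodes, which have the same light chain junction by definition. With repeats counted as 1, 60 of 106 pairs of 1 switched isotype were left, and 37 of 44 unswitched-switched pairs. Of the 44, 28 were in 5xFAD dCLN, and the shares were not tested.

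**Figure D4:**
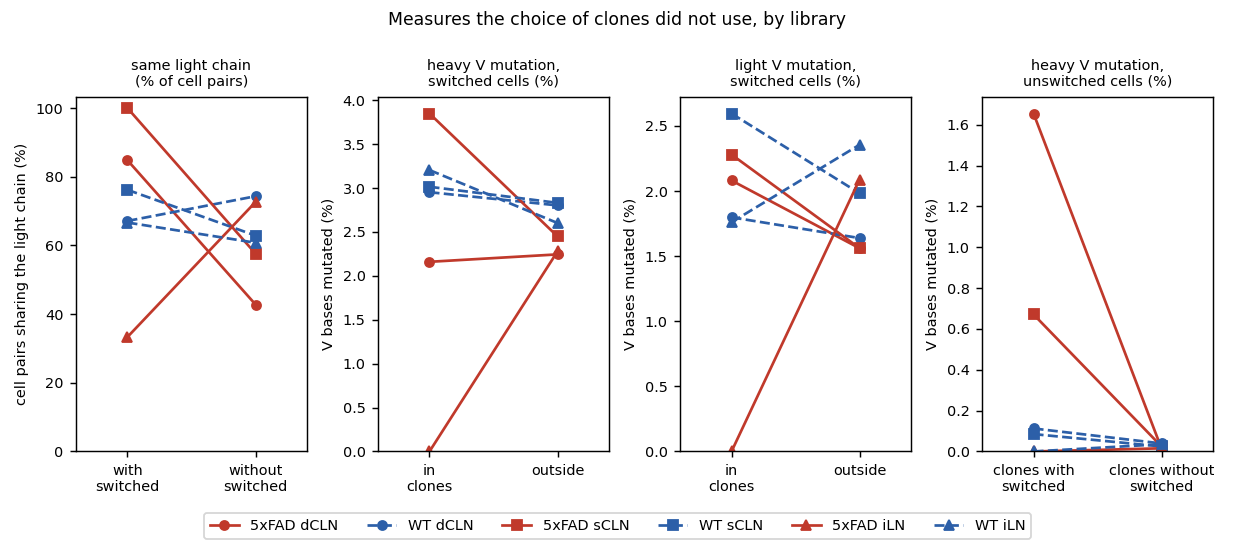
Each line is 1 library, joining its value in the clones holding switched cells (left) with that outside or in clones without them (right), in red for 5xFAD and blue for WT, with circles for dCLN, squares for sCLN and triangles for iLN. Lines cross in the first 3 panels, and in the fourth, unswitched cells, the 5xFAD dCLN value stands at 1.66% and the other libraries below 0.7%.

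The 44 pairs with different top light chains were of unlike kinds. In 14 pairs of 7 clones the heavy chain junction was identical, and the median pair with mutations shared 88.9% of its V mutations. In the other 30 pairs the junctions differed by a median of 3.5 bases, and the median share of common mutations was 0%. An example of the first kind, named after its values were seen, was a WT dCLN pair of IGHV2-2 and IGHJ3, in which IgG2c cells with 1 and 2 heavy chain UMIs had the same 13 mutations and the light chains IGKV12-41 and IGKV2-137. A WT dCLN clone of IGHV9-3 and IGHJ4 held pairs of both kinds. Its 4 IgG2b cells (1, 2, 3 and 5 UMIs) had 7, 8, 9 and 7 mutations, 7 of them common to each pair, but IGKV6-32, IGKV1-117, IGKV6-17 and IGKV1-117. Its IgG2c cell (8 UMIs) had 5 mutations with IGKV1-117. The IgG2c cell shared no mutation with the IgG2b cells, and its junction differed from theirs by 3 or 4 bases. In the 9 clones with partial agreement, 10 cells had a light chain other than the commonest, with a median of 6.5 heavy chain UMIs against 10 in the 25 others, and 32 light chain UMIs against 21. Of the 10, 3 carried the commonest chain as a second one. The part of cell doublets or free RNA in this was not tested.

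**Figure D5:**
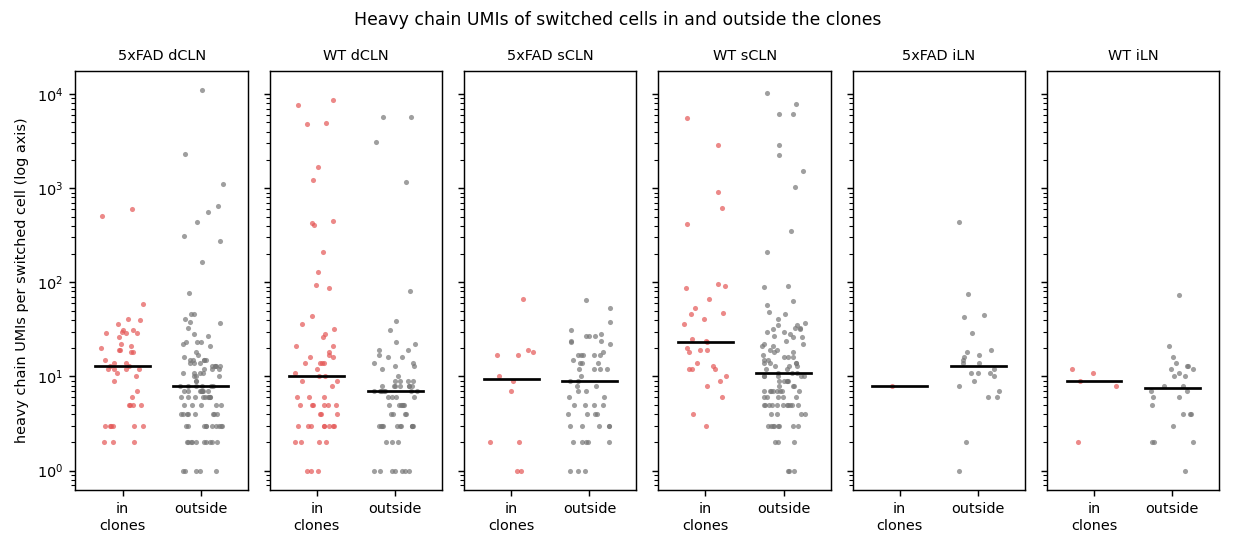
Each point is 1 switched cell, placed by its heavy chain UMIs on a log axis, with cells of the clones left and switched cells outside right in each library, and black bars at the medians. The highest cells of the clones are in WT dCLN and WT sCLN, and most cells lie below 100 UMIs.

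Heavy chain UMIs spanned 1 to 8595 in the switched cells of the clones. Their median was 13, against 8 in switched cells outside, and by library the mean log2 UMIs differed by 0.36 in 5xFAD dCLN, 1.14 in WT dCLN, -0.21 in 5xFAD sCLN, 1.28 in WT sCLN, -0.80 in 5xFAD iLN and 0.04 in WT iLN. The mean difference was 0.30 ± 0.80 on the log2 scale, higher in 4 of 6 libraries (exact sign-flip permutation test, p = 0.344, adjusted p = 0.677). On the same scale it was 0.11 without WT sCLN, 0.13 without WT dCLN and 0.52 without 5xFAD iLN. It was 0.16 at a junction distance of 0.10, 0.13 with repeated barcodes counted as 1, and 0.65 with the same light chain required. The last value leaves out 5xFAD iLN, which had no clone in that setting. Cells with 100 or more heavy chain UMIs, a level reached by cells rich in immunoglobulin RNA such as plasma cells, were 18 of 159 switched cells inside (11.3%, 6.85% to 17.3%) and 24 of 404 outside (5.94%, 3.84% to 8.71%). By library the shares inside and outside were 4.26% and 8.04% in 5xFAD dCLN, 17.7% and 5.41% in WT dCLN, 0% and 0% in 5xFAD sCLN, 15.6% and 8.93% in WT sCLN, 0% and 4.17% in 5xFAD iLN, and 0% and 0% in WT iLN. The inside share was thus above the outside share in the WT cervical libraries and in no other library, and was not tested. With unswitched cells included, 20 cells in 13 clones reached this level, and in 5 of these clones every cell did.

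The highest counts were in WT cervical clones. The 2 IgG2b cells of the WT dCLN clone of IGHV2-9-1, IGHJ4 and IGKV17-121 had 7593 and 8595 UMIs and the same 6 mutations. The 3 IgG2c cells of the WT dCLN clone of IGHV1-50, IGHJ4 and IGKV11-125 had 1231, 4864 and 4931 UMIs and the same 16 mutations. In the WT sCLN clone of IGHV5-16 and IGHJ1 an unmutated IgA cell had 5582 UMIs and an unmutated IgM cell 11, with different light chains and junctions 3 bases apart. Cells joined in 1 clone were thus close in UMIs in some clones and far apart in others. The IGHV2-9-1 and IGHV1-50 clones each consisted of 1 receptor only, so sister cells cannot be told apart there from repeated barcodes of 1 cell. An unmutated IgA pair in 5xFAD dCLN (IGHV1-55, IGHJ1, IGKV2-137), named after its values were seen and also of 1 receptor, had 503 and 597 UMIs.

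The remaining named clones of the cervical nodes were mostly of IgG cells. The 5xFAD dCLN clone of IGHV1-18, IGHJ2 and IGKV19-93 had 4 IgG1 cells with 9, 10, 10 and 10 mutations, 8 of them in all cells, at 3 to 21 UMIs. In 5xFAD sCLN a pair of IgG2b cells of IGHV4-1 and a pair of IgG1 cells of IGHV1-53 each had the same 8 mutations. In WT sCLN, 3 IgG1 cells of IGHV5-2, IGHJ4 and IGKV4-59 had 7, 11 and 11 mutations. The WT sCLN clone of IGHV1-64 and IGHJ4 had IgG1 cells with 2 and 3 mutations and an IgM cell with 1 and another light chain. An IgG2b and an IgG2c cell of IGHV1-15 and IGKV6-32 in WT sCLN had 16 mutations each but 1 in common. In WT dCLN, IgG2c cells of IGHV5-12 had 0 and 2 mutations with IGKV9-124, beside an unmutated IgG2b cell with IGLV1.

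The 4 inguinal clones were few and small. The 5xFAD iLN clone of IGHV1-82 and IGHJ3 held an IgG2c, an IgD and an uncalled cell, all unmutated, and the IgG2c cell had IGKV12-38 where the other 2 had IGKV10-96. In WT iLN, a pair of IgA cells of IGHV1-9 and IGKV12-46 had the same 4 mutations, and IgG2b cells of IGHV5-16 and IGKV10-96 had 18 and 21 with 15 in common. An IgA and an IgM cell of IGHV9-3 were unmutated with different light chains. The switched cell of the single 5xFAD iLN clone was thus joined by its heavy chain alone.

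V genes were spread widely. IGHV2-2 was used by 7 clones, all in WT libraries, IGHV1-64 by 6, IGHV8-8 and IGHV9-3 by 5 each, and no other gene by more than 3. IGHV2-2, IGHV1-64, IGHV8-8 and IGHV9-3 made 10%, 8.57%, 7.14% and 7.14% of clones. The same genes made 2.23%, 3.71%, 2.48% and 4.21% of switched cells outside, and 2.88%, 3.11%, 3.30% and 4.06% of all cells. The 5 IGHV9-3 clones were also all in WT libraries and the 3 IGHV1-53 clones all in 5xFAD libraries, which is a description of small counts. Light chains disagreed in several of the IGHV2-2 and IGHV9-3 clones and in some IGHV1-53 clones. IGHJ2 was used by 24 clones, IGHJ4 by 22, IGHJ1 by 15 and IGHJ3 by 9. Junctions were 27 to 63 bases long, with a median of 45, against 42 in switched cells outside. IGKV10-96 was the commonest light chain V gene of 8 clones (11.4%), against 4.60% of switched cells outside.

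Identical junctions with a common light chain linked 2 pairs of clones in different libraries, both within a genotype. The unmutated IGHV8-8 and IGHJ2 heavy chain formed a clone with IgG2b and IgG2c cells in both 5xFAD dCLN and 5xFAD sCLN. In 5xFAD dCLN these cells had 12 and 9 heavy chain UMIs, both with IGKV6-15. In 5xFAD sCLN they had 2 each, and IGKV6-15 was read in the IgG2c cell only, at 3 UMIs. The unmutated IGHV1-76 and IGHJ1 receptor with IGKV10-96 formed an IgG2b clone in both WT dCLN (36, 408 and 449 UMIs) and WT sCLN (20 and 2892 UMIs). With similar instead of identical junctions there were 8 matches with a common light chain, 6 within a genotype and 2 across. Whether nodes came from the same animals was not used here.

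At the distance limit, the farthest link inside the clones was 0.146 of the junction, and the nearest switched cell left outside stood at 0.154. Of the 404 switched cells outside, 26 had a neighbour at up to 0.20, and 24 of the links inside were over 0.10. Junctions were identical in all cells of 33 clones.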

How the data were processed

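The labels' protocols describe droplet libraries of B cell receptor transcripts. The submitters' processing notes name the build mm10, Seurat 4.1.0 and Cell Ranger 6.0.1, with no role for any of them. The set of germline V genes was not given in the sources used here. Counts of UMIs and reads per contig were deposited by the authors, as was the V identity, a fraction. Junction lengths count bases.

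From these tables, V mutation was counted as mismatches between the deposited aligned and germline sequences over the V gene, including its last bases inside the junction. The light chain of a cell was the one with most UMIs. Light chains were taken as the same by V gene, J gene and junction length. Barcodes with several heavy chains were left out, and no doublet caller was run. Clopper-Pearson intervals cover counting error only. Measures that the choice of clones did not use, apart from V bases inside the junction, were compared over the 6 libraries. The test was an exact two-sided sign-flip permutation test of the paired differences, with Benjamini-Hochberg adjustment over 5 tests. The libraries are 1 per node and genotype, so p-values measure the spread between libraries. The library that mixes nodes and genotypes was not used. Clones named are those with 4 or more cells, the 3 largest per library, all inguinal ones, and the 5 first by mutation range, by median UMIs, by switched isotypes and by unswitched cells with agreeing light chains. Members and lists were chosen with earlier results of these data known. Coordinates are from GENCODE M21 on GRCm38, where all 87 gene names were found. Python 3.11.15, pandas 2.3.3, numpy 2.4.6, scipy 1.17.1 and matplotlib 3.10.9 were used, and scripts were tested on simulated data. Alternatives varied the junction distance, light chain requirement, repeated barcodes, cell filters and depth.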

Additional observations from a re-analysis of the deposited data

Results flagged for a closer look

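The inside minus outside difference in light chain V mutation of switched cells averaged 1.84 percentage points more in the 4 cervical libraries, where each was positive, than in the 2 inguinal ones, where both were negative. The corresponding gap for heavy chain V mutation of unswitched cells was 0.631 points, again with all cervical libraries above 0 and both inguinal ones below. Neither gap was tested, and the inguinal values rest on 1 switched and 1 unswitched clone cell in 5xFAD and 5 switched and 1 unswitched in WT.

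Barcodes with several heavy chains were outside the comparisons. Of 765 such barcodes, 10 (1.31%) held a heavy chain of 8 of the clones. A count of 0 would allow up to 0.392%, and cells of the clones made up 1.05% of the cells with 1 heavy chain.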

How the results depend on the processing

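Of 301 recomputed values of 24 results, 250 were counted as unchanged, 32 moved and 19 reversed. Counts, shares and medians were unchanged when they stayed within set limits. Tested differences were unchanged when direction and test outcome stayed, whatever their size. No test passed its threshold, but the sign-flip test of 6 libraries has a smallest possible p of 0.03125 before adjustment over 5 tests. A pass was thus barely possible, and with fewer libraries it was not possible, so nothing follows from this. With junctions up to 0.20 apart, 32.9% of switched cells lay in the clones (WT sCLN 31.9% in 28 clones), and 43.5% of clones held unswitched cells. With identical junctions there were 46 clones holding 18.1% of switched cells (5xFAD dCLN 18.9%, WT dCLN 29.4%, WT sCLN 15.3% in 11 clones, 5xFAD iLN 0% in 0 clones, WT iLN 1 clone), and 13.0% held unswitched cells. With the same light chain required the share was 23.5% (5xFAD iLN 0% in 0 clones), and 14.5% of clones held unswitched cells. With repeated barcodes counted as 1 it was 19.5% (WT dCLN 34.2%, WT sCLN 11.1% in 9 clones), and the median mutation range was 0.888 points. With exactly 1 light chain per cell 5xFAD sCLN had 3 clones. Thinned to 2107 cells per library over 200 draws, there were 38.3 clones and 21.0% of switched cells (5xFAD dCLN 8.54 and 22.4%, WT dCLN 14.3 and 37.0%, WT sCLN 6.88 and 14.4%).

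Light chain agreement fell below 0 at distance 0.10 (-5.30 points) and with identical junctions (-5.82). The heavy chain mutation difference, near 0, turned positive at 0.10 (0.151), at 0.20 (0.0177), with identical junctions (0.0227), with the same light chain (0.669), with repeats counted as 1 (0.503), with 1 light chain (0.219) and with single V calls (0.0177). The light chain mutation difference turned positive with the same light chain (0.459), repeats as 1 (0.348) and 1 light chain (0.0514). 5xFAD iLN had no clone with identical junctions or with the same light chain required, so values here under those settings leave it out. Of the alternatives chosen after seeing the data, leaving out mismatches recurrent in unswitched cells gave 0.000943 and 0.0504, and leaving out both inguinal libraries 0.412 and 0.503, for heavy and light chains. Without each library in turn the ranges were -0.285 to 0.450 for heavy and -0.278 to 0.283 for light chains, highest without 5xFAD iLN. The causes were not tested. Clones and the rest were compared within each library. 5xFAD and WT were not tested against each other, because each node and genotype had 1 library.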
